A study of Mus musculus with 12 samples.

Results

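The 10 genes that mark macrophages were followed in cultures of mouse skeletal muscle fibroblasts to see how much macrophage RNA the cultures held and whether it changed with treatment. The genes were *Ptprc*, *Cd68*, *Adgre1*, *Csf1r*, *F13a1*, *Mrc1*, *C1qa*, *C1qb*, *C1qc* and *Lyz2*, found by gene name in the 3 deposited tables, and 8 of these 10 had a row there, among 28995 genes in any table. They were selected from earlier results of the same values, where *F13a1* was already known to be lower with aldosterone, so the treatment values of *F13a1* are a description and its fall supports nothing by itself.

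The fibroblasts came from hindlimb muscle of 3-day-old C57 BL/10 wild-type mice and were enriched by adherence to plastic. Passage 2 cells were pooled for each of 2 mice, kept in serum stripped of steroids by charcoal and given 1 µM aldosterone, the agonist of the mineralocorticoid receptor, 1 µM spironolactone, its antagonist, or the DMSO vehicle for 48 hours. Each treatment had 4 plates (n = 4 libraries), from 2 mice with 2 plates per mouse. The labels number each library by a sample number and a biological replicate, without saying which is the mouse, so the p-values measure the spread between these plates, which may be partly technical. The libraries held from 19136923 to 30219185 reads assigned to genes. The known steroid targets *Fkbp5*, *Tsc22d3*, *Per1* and *Zbtb16* (4 of 4) were raised by aldosterone against vehicle, *Fkbp5* by 4.26 on the log2 scale, and 0 of these 4 passed in spironolactone versus vehicle.

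Macrophages of muscle are tissue-resident phagocytes that depend on the receptor encoded by *Csf1r* and its ligands CSF1 and IL-34, and their identity rests on the transcription factor PU.1, encoded by *Spi1*. *Ptprc* encodes CD45, the phosphatase on the surface of nearly all leukocytes, and *Adgre1* encodes F4/80, the classical surface marker of mouse macrophages. *Cd68* encodes a lysosomal glycoprotein, *Mrc1* the mannose receptor CD206 and *Lyz2* lysozyme M. *C1qa*, *C1qb* and *C1qc* encode the 3 chains of C1q, which starts the classical complement pathway and is made mainly by macrophages. *F13a1* encodes the A subunit of coagulation factor XIII, a transglutaminase that cross-links fibrin.

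The bases before the start of 3 members are shown, *F13a1* as the gene that fell with aldosterone, *Lyz2* as the member with the most RNA per length and *C1qc* as a macrophage gene with almost no reads. Each is the 250 bases before a transcription start in RefSeq on GRCm38.p6, written 5′ to 3′ on the gene's strand, with GAGGAA (a core of PU.1 sites) and AGAACA (a half-site of steroid receptors) in capitals on either strand.
F13a1, chr13:37050245-37050494, minus strand: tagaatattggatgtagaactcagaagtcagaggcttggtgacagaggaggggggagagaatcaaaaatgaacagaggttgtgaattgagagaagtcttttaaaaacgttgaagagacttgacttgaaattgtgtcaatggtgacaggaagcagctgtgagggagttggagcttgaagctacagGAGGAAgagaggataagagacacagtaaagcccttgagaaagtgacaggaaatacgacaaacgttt
Lyz2, chr10:117282273-117282522, minus strand: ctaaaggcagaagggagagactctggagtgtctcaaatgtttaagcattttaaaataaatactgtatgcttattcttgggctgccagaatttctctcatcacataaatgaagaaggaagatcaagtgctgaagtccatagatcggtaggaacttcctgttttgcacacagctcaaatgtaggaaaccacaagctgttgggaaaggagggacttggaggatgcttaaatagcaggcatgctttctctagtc
C1qc, chr4:136892915-136893164, minus strand: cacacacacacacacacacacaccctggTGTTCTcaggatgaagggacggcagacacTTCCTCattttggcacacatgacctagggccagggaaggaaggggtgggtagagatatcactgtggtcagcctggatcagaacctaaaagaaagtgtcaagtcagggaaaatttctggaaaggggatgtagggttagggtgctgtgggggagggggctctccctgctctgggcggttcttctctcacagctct
GAGGAA stood in 6 of the 9 windows counted here, from 7 members (66.7%), and in 23.25% of 32851 windows of this length over all genes. The shares do not cover the remaining members. AGAACA stood in 3 of the 9 (33.3%), against 16.08% of all windows. The F13a1 window above holds 1 GAGGAA and no AGAACA, a second F13a1 window holds neither, the Lyz2 window holds neither, and the C1qc window holds 1 of each. A match is only a run of letters.

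The defining markers were at the bottom of the measurable range, while 5 members gave enough reads to be compared. Across the 12 libraries *Ptprc* had 2, 1, 0 and 0 reads in the vehicle libraries, 0 in all 4 aldosterone libraries and 1, 1, 0 and 0 in the spironolactone libraries. *Adgre1* had 2 and 3 reads in the aldosterone libraries of sample number 1 and 0 in the other 10 libraries. *C1qc* had 1 read in 1 vehicle library, 1 in 1 spironolactone library and 0 in the other 10, and *C1qa* and *C1qb* had no row in any table. A library with 0 reads of a gene still allowed up to 3 reads, between 0.0993 and 0.157 RPM by library (reads on the gene scaled to 1000000 reads on genes), and this floor covers counting error only. No fold is read from these 5 genes, since the 3 with a row had at most 3 reads in any library.

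Per length, *Lyz2* stood highest in the vehicle plates at 20.4 ± 3.61 TPM (SD, n = 4; reads divided by gene length and scaled to 1000000 in each library), above *F13a1* at 4.07 ± 1.37 TPM. *Cd68* followed at 3.11 ± 1.29 TPM, *Csf1r* at 1.52 ± 0.258 TPM and *Mrc1* at 0.927 ± 0.301 TPM. The range of *Lyz2*, from 15.6 to 24.3 TPM, lay above that of *F13a1*, from 2.56 to 5.35 TPM. *F13a1* overlapped *Cd68*, which ran from 1.58 to 4.74 TPM, and the order of these 2 is not settled by their spread. *Cd68* overlapped *Csf1r*, from 1.25 to 1.82 TPM, and *Csf1r* overlapped *Mrc1*, from 0.606 to 1.33 TPM.

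The RNA of the fibroblast program was far above these levels. The median over the 15 fibroblast markers in vehicle plates was 308 TPM, with *Col1a1*, the main collagen chain of these cells, at 14183 TPM and *Pdgfrb*, a receptor of stromal cells, at 308 TPM, while the median over the 10 macrophage genes was 0.475 TPM, with genes of no row set at 0. The 26 markers of other immune lineages had a median of 0 TPM, and 21 of them had no row or at most 3 reads in every library. The 8 endothelial markers had a median of 0.254 TPM and the 10 myogenic markers 0.199 TPM. In the plot of marker genes per length, the macrophage genes lie at the height of the endothelial and myogenic markers. All 15 fibroblast markers had more than 3 reads in a library. None of the 12 libraries analysed here was of macrophages alone, so the share of macrophages cannot be worked out, and fewer cells of a type and less RNA per cell cannot be told apart in bulk samples.

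**Figure D1:**
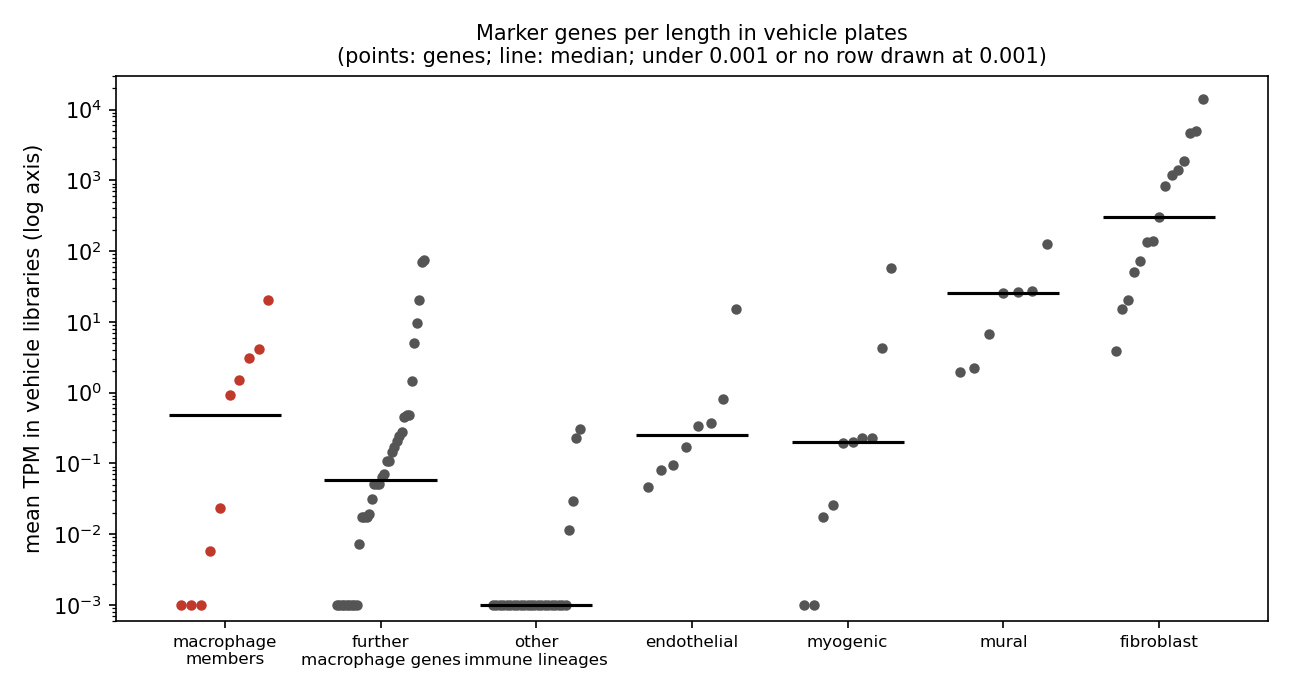
Mean TPM in the 4 vehicle libraries on a log axis for the genes of 7 marker lists, each point a gene and each line the median of its list. The 10 macrophage genes have a median of 0.475 TPM and the 15 fibroblast genes 308 TPM.

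The reads on the 10 genes together were a small share of each library, and their sum was lower in the aldosterone plates, while the sum without *F13a1* overlapped between treatments. The sum was 22.7, 20.9, 16.1 and 16.4 RPM in the vehicle libraries, 12.9, 13.7, 12.3 and 11.1 in the aldosterone libraries and 19.3, 21.5, 14.5 and 15.1 in the spironolactone libraries. The mean sum was 19.0 ± 3.26 RPM with vehicle, 12.5 ± 1.12 with aldosterone and 17.6 ± 3.38 with spironolactone (SD, n = 4), and on this scale every aldosterone library lay below every library of the other treatments. In TPM, which weights the genes by length, the aldosterone libraries ran from 22.2 to 26.0, below the vehicle libraries at 26.3 to 35.0 but overlapping the spironolactone libraries at 21.9 to 31.5, and the log2 difference from vehicle was -0.31. *F13a1* held between 28.2% and 43.0% of the sum in the vehicle libraries and between 5.94% and 19.1% in the aldosterone libraries. Without *F13a1* the means were 11.9 ± 0.996, 11.1 ± 0.544 and 11.1 ± 1.27 RPM for vehicle, aldosterone and spironolactone, and the 3 groups overlapped. On the log2 scale the sum was -0.61 with aldosterone against vehicle and -0.10 without *F13a1*. No test is given for a sum over genes that were picked with the results known.

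**Figure D2:**
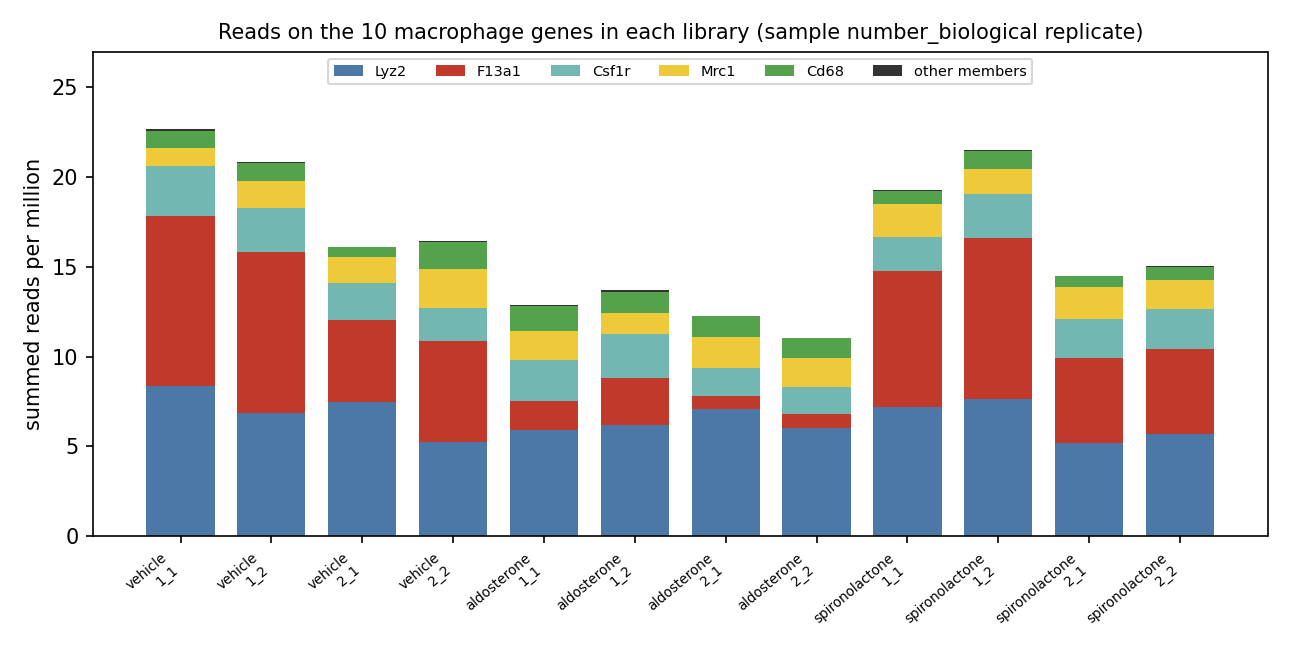
RPM on each macrophage gene, stacked for each of the 12 libraries, which are named by treatment, sample number and biological replicate. The red *F13a1* part is small in the 4 aldosterone libraries, whose sums lie between 11.1 and 13.7.

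*F13a1* was the 1 of 7 tested members that passed the test with aldosterone against vehicle, in a table where 10.4% of 27319 genes passed in either direction and 0.666% were lower with also a log2 fold change of 1 or more in size. It had 9.47, 8.96, 4.55 and 5.62 RPM in the vehicle libraries, 1.62, 2.62, 0.729 and 0.761 in the aldosterone libraries and 7.61, 8.95, 4.73 and 4.73 in the spironolactone libraries. All aldosterone libraries lay below all vehicle and spironolactone libraries, and in each treatment the libraries of sample number 1 lay above those of sample number 2. The reads behind these values were between 19 and 67 in the aldosterone libraries and between 87 and 271 in the vehicle libraries. The genes that overlap *F13a1* on the other strand, *Gm30489* and *Gm49144*, had at most 6 reads in any library.

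Against vehicle, *F13a1* fell by 2.38 on the log2 scale of normalized count + 1 (95% CI -3.13 to -1.62, SE 0.354, limma adjusted p = 0.000225 over 27319 genes). Against spironolactone, both steroids at 1 µM for 48 hours, it fell by 2.24 (95% CI -2.97 to -1.52, SE 0.343, limma adjusted p = 0.000227 over 27631 genes). Spironolactone and vehicle differed by -0.13 (95% CI -0.63 to 0.37, limma adjusted p = 0.970), an interval that includes 0 but does not show that they act alike. Aldosterone and spironolactone were the 1 pair of compounds, and they were compared at a matched dose and time. These fits did not use the sample number. In the same kind of fit without the spironolactone library 1_1 or 1_2, the limma adjusted p against spironolactone was 0.0501 or 0.0609. The fold changes were -2.15 and -2.07, so the call of the fit without a block rests on these libraries. With the sample number as a block, the 95% CI was -2.76 to -1.99 against vehicle and -2.63 to -1.86 against spironolactone. The limma adjusted p against spironolactone was then 1.23e-11. No library was left out of the blocked fit.

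**Figure D3:**
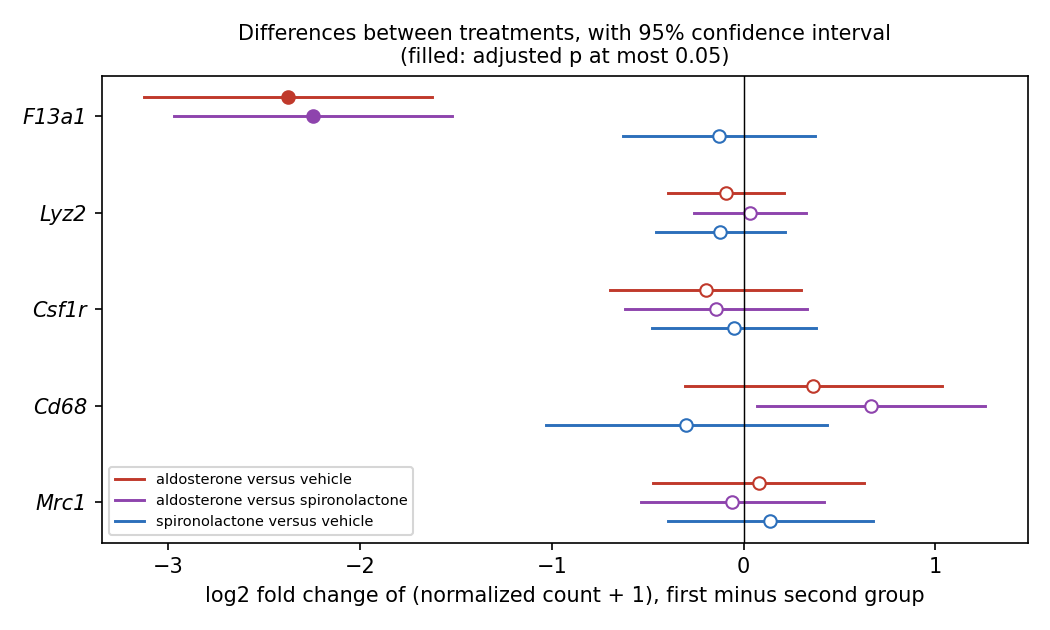
Log2 fold change of normalized count + 1 with its 95% confidence interval for the 5 members with more than 3 reads in a library, in the 3 comparisons, filled where the adjusted p is at most 0.05. Only *F13a1* has filled points, at -2.38 and -2.24.

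The genes lie on 8 chromosomes, and the coordinates here are those of the tables, whose build the submitters' processing notes give as mm39. *F13a1* is at chr13:37051152-37234220 on the minus strand, *Lyz2* at chr10:117113236-117118226 on the minus strand, *Csf1r* at chr18:61233670-61265221 on the plus strand, *Cd68* at chr11:69555039-69556979 on the minus strand and *Mrc1* at chr2:14234203-14336868 on the plus strand. *Ptprc* is at chr1:137990599-138103446 on the minus strand, *Adgre1* at chr17:57665691-57790527 on the plus strand and *C1qc* at chr4:136617115-136620376 on the minus strand.

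The remaining measurable members did not pass the test in any comparison of treatments. *Lyz2* had 8.38, 6.85, 7.47 and 5.25 RPM in the vehicle libraries, 5.90, 6.17, 7.10 and 6.02 with aldosterone and 7.17, 7.66, 5.18 and 5.72 with spironolactone, and the groups overlapped. Its log2 fold change was -0.09 with aldosterone against vehicle (95% CI -0.39 to 0.21, limma adjusted p = 0.775). *Lyz2* shares 95.96% of 1263 aligned transcript bases with its paralog *Lyz1*, which had at most 3 reads in any library, so reads that fit both could not be assigned with certainty. *Csf1r* had 2.76, 2.48, 2.09 and 1.84 RPM with vehicle, 2.30, 2.50, 1.54 and 1.52 with aldosterone and 1.90, 2.49, 2.21 and 2.22 with spironolactone, and its log2 fold change against vehicle was -0.20 (95% CI -0.69 to 0.30, limma adjusted p = 0.694). The counting strand is not stated, and *Csf1r* shares 873 bases at its end with *Hmgxb3* on the other strand, which had between 735 and 1354 reads, so the few reads of *Csf1r* may belong in part to its neighbor. *Pdgfrb* ends 15536 bases before the start of *Csf1r* on the same strand.

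*Cd68* had 0.978, 1.03, 0.523 and 1.52 RPM with vehicle, 1.36, 1.13, 1.19 and 1.13 with aldosterone and 0.752, 0.994, 0.630 and 0.725 with spironolactone. The aldosterone libraries lay above the spironolactone libraries with no overlap, a log2 fold change of 0.67 (95% CI 0.07 to 1.26, limma adjusted p = 0.195), and overlapped the vehicle libraries, with 0.36 (95% CI -0.31 to 1.03, limma adjusted p = 0.593). *Mrc1* had 1.01, 1.49, 1.46 and 2.16 RPM with vehicle, 1.62, 1.17, 1.73 and 1.62 with aldosterone and 1.81, 1.39, 1.76 and 1.62 with spironolactone. Its log2 fold change against vehicle was 0.08 (95% CI -0.47 to 0.63, limma adjusted p = 0.912), and all groups overlapped.

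Apart from that of *Cd68* between aldosterone and spironolactone, the intervals for the other pairs of treatments also included 0. Aldosterone against spironolactone gave 0.03 for *Lyz2* (95% CI -0.26 to 0.32), -0.15 for *Csf1r* (95% CI -0.62 to 0.33) and -0.06 for *Mrc1* (95% CI -0.54 to 0.42) on the log2 scale. Spironolactone against vehicle gave -0.30 for *Cd68* (95% CI -1.03 to 0.43), -0.12 for *Lyz2* (95% CI -0.46 to 0.22), -0.05 for *Csf1r* (95% CI -0.48 to 0.38) and 0.14 for *Mrc1* (95% CI -0.39 to 0.67). These intervals do not show that the treatments act alike, and for *Cd68* they leave room for a change of 1 on the log2 scale.

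**Figure D4:**
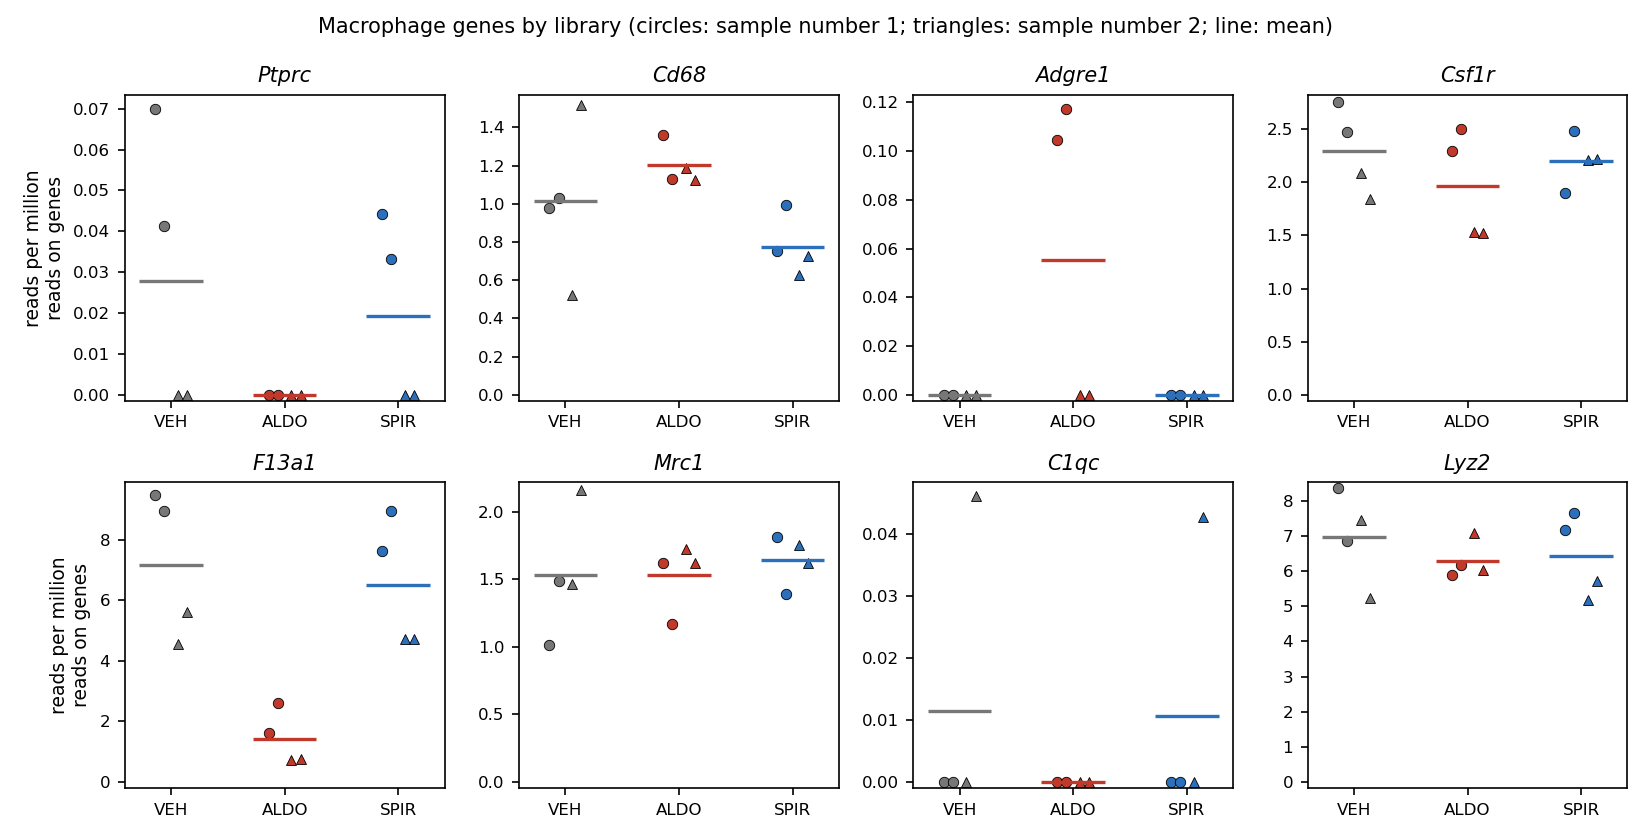
RPM of the 8 members with a row, in each library by treatment, with circles for sample number 1, triangles for sample number 2 and the group mean as a line. *F13a1* alone separates aldosterone from both other treatments, and *Ptprc*, *Adgre1* and *C1qc* are at 0 to 3 reads.

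Counted over the members, 7 of 10 had a row in each table, though not the same 7, since *Adgre1* was listed only with aldosterone and *C1qc* only without it. In aldosterone versus spironolactone 1 of 7 passed, again *F13a1*, where 8.88% of genes passed and 0.521% were lower at both thresholds. In spironolactone versus vehicle 0 of 7 passed, in a table where 0% of 27598 genes passed by limma, 1251 had an unadjusted p under 0.05, DESeq2 passed 12 higher and 1 lower, and edgeR passed 0, with 751 at an unadjusted p under 0.05. With the sample number as a block, 63 genes of that table passed as higher and 34 as lower, and 0 members did. The median log2 fold change over the members was -0.09 with aldosterone against vehicle, beside -0.01 over all genes, and -0.12 with spironolactone against vehicle, beside 0.00.

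*F13a1* also differed between the sample numbers of the libraries. Over treatments it was 6.54 ± 3.49 RPM in the 6 libraries of sample number 1 and 3.52 ± 2.18 in the 6 of number 2 (SD), and the fit with treatment as a covariate gave -1.06 on the log2 scale for number 2 against 1 (95% CI -1.34 to -0.78, limma adjusted p = 1.75e-06 over 28995 genes). The labels do not say which number is the mouse. If it is the sample number, this sets 1 mouse against 1 other, and the p measures only the spread between plates. Between these numbers 10.8% of genes passed and 0.317% were lower at both thresholds, and *F13a1* was the 1 member among 8 that passed. The size of this difference was under 1 by edgeR (-0.98) and without the aldosterone library 1_2 (-0.92), while it still passed at the adjusted p of 0.05. Aldosterone against vehicle was -2.09 on the log2 scale within number 1, with 52.3 against 219.5 normalized counts, and -2.66 within number 2, with 17.8 against 118.6. The difference of these fold changes, -0.58 on the log2 scale, had a limma adjusted p of 0.895, a test added after the values were seen. *Csf1r* and *Lyz2* differed by -0.37 and -0.23 between the numbers, with limma adjusted p of 0.176 and 0.192, and did not pass.

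The genes whose variation between plates was most like that of *F13a1* were taken by Pearson's r over the 12 libraries, on deviations from the treatment mean, among 15309 other genes with a mean of at least 10 counts. They were *Tes* (r = 0.98), *Arhgdia* (r = 0.98), *Prep* (r = 0.97), *Rrm1* (r = 0.97) and *Slc25a13* (r = 0.97), and no other macrophage member was among these 5. Of the members with a mean of at least 10 counts, *Csf1r* had r = 0.84 with *F13a1*, *Cd68* r = 0.36, *Lyz2* r = 0.36 and *Mrc1* r = -0.56 over the same libraries. The libraries share their sample number, which moves many genes, and no p is given. The likeness to C1q could not be used, since it rests on 2 reads.

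The wider macrophage program was as sparse as the defining markers. Of 36 further macrophage genes, 19 had no row or at most 3 reads in every library, among them *Spi1* with at most 2 reads, *Tyrobp*, the adaptor of myeloid receptors, with at most 2, *Aif1* with at most 2 and *Cd163* with at most 3. The 23 listed genes with a mean under 10 reads summed to between 2.30 and 2.95 RPM with vehicle, 2.27 and 3.38 with aldosterone and 1.36 and 3.07 with spironolactone, and these ranges overlapped. In aldosterone versus vehicle 3 of 27 tested genes rose and 0 fell, and the median of the list was 0.14. Of all genes 10.4% passed there in either direction. The 3 that rose were *Mertk*, a receptor for engulfing dead cells, *Gpnmb*, a lysosomal glycoprotein, and *Cd14*, a co-receptor for bacterial lipid. *Mertk* was 10.99 ± 3.70 RPM with vehicle and 25.2 ± 7.99 with aldosterone, 1.24 higher on the log2 scale (95% CI 0.79 to 1.70, limma adjusted p = 0.000875), and *Gpnmb* was 128 ± 7.03 and 227 ± 8.27, 0.87 higher (limma adjusted p = 3.32e-08). Per length, *Gpnmb* stood at 75.4 TPM in vehicle plates and *Mertk* at 9.77 TPM, against 20.4 TPM for *Lyz2*. *Ptprc*, *Adgre1* and *C1qc* were at 0 to 3 reads in the same libraries, and which cells the reads on *Gpnmb* and *Mertk* came from was not tested. In aldosterone versus spironolactone 3 of 27 genes rose and 0 fell, where 8.88% of all genes passed in either direction.

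RNA of a ligand of the receptor encoded by *Csf1r* was abundant and that of the receptor was low. *Csf1* stood at 620 TPM in vehicle plates against 1.52 TPM for *Csf1r*. *Il34*, the second ligand, was 7.48 ± 1.61 RPM with vehicle and 15.3 ± 1.58 with aldosterone, 1.09 higher on the log2 scale (95% CI 0.81 to 1.37, limma adjusted p = 2.71e-05). Of 9 tested genes in this list 2 rose with aldosterone, *Il34* and *Cebpb*, and 1 fell, *Runx1*, a regulator of blood cells, by 0.57 (limma adjusted p = 0.000480). Against spironolactone 1 of 8 rose, *Il34*, and 1 fell, *Csf2ra*, a receptor chain for GM-CSF. Over all genes 10.4% passed against vehicle and 8.88% against spironolactone, in either direction. The regulators *Cebpb* and *Cebpa* stood at 196 and 73.0 TPM in vehicle plates, while *Irf8*, a factor of myeloid cells, had at most 5 reads in a library.

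The proteases of the first complement complex were expressed in plates with almost no C1q reads. *C1ra* and *C1s1*, which partner C1q, stood at 119 and 65.2 TPM with vehicle, and *Calr*, a chaperone that binds C1q, at 1168 TPM. In aldosterone versus vehicle 3 of 10 genes rose and 0 fell, beside a median of 0.38 for the list. Of all 27319 genes 10.4% passed in either direction. *C3* rose by 1.64 on the log2 scale (95% CI 1.30 to 1.97, limma adjusted p = 2.30e-06), *C4b*, the next component of the cascade, by 1.09 (limma adjusted p = 1.06e-07), and *Serping1*, the inhibitor of C1r and C1s, by 0.62 (limma adjusted p = 1.07e-05). Against spironolactone the same count was 3 of 10 higher and 0 lower, where 8.88% of all genes passed in either direction.

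Of the relatives of *F13a1* in coagulation, 1 gene passed as lower with aldosterone. Of 11 tested genes 0 rose and 1 fell, *F5*, coagulation factor V, by 0.80 on the log2 scale (limma adjusted p = 0.0166). Over all genes 10.4% passed against vehicle in either direction. *F3*, tissue factor, stood at 88.8 TPM in vehicle plates. *Tgm2*, another transglutaminase, was 11.7 ± 2.08 RPM with vehicle and 15.9 ± 3.67 with aldosterone, and did not pass. *F13b*, the carrier subunit of factor XIII, had at most 2 reads.

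Other immune lineages gave almost no reads. *Clec9a*, a marker of dendritic cells, had 1 to 6 reads in the aldosterone libraries and 0 in the vehicle libraries, and passed as higher with aldosterone (limma adjusted p = 0.0186), the 1 of 5 tested genes to do so. These reads are too few for a fold, and against spironolactone 0 of 7 genes of the list passed. Over all genes 10.4% passed against vehicle and 8.88% against spironolactone, in either direction.

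Markers of the other cell types a muscle culture can hold are given beside the members. With aldosterone against vehicle, 10.4% of all genes passed in either direction. Of 15 fibroblast genes 5 rose with aldosterone against vehicle and 1 fell. The summed level of the list was 53838 to 58295 RPM with vehicle and 47654 to 52065 RPM with aldosterone. Its largest parts were *Col1a1*, with means of 24204 and 18650 RPM, and *Col1a2*, with 15840 and 13612 RPM. The sum mostly follows these collagen genes and does not measure the amount of fibroblast RNA. *Ly6a*, a surface marker of stromal progenitors, rose by 1.02 on the log2 scale (limma adjusted p = 1.65e-06). *Kdr*, the endothelial receptor of VEGF, rose by 1.88 (limma adjusted p = 0.00183), the 1 of 8 endothelial genes that passed, and *Acta1*, skeletal muscle actin, fell by 1.26 (limma adjusted p = 0.000994), the 1 of 8 tested myogenic genes that passed. Of the mural list 0 of 7 genes passed, of the Schwann list 1 of 6 rose, and of the epithelial list 0 of 6 passed. The part of these cells in the fall of *F13a1* was not tested. In spironolactone versus vehicle 0 genes of these lists passed by limma.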

How the data were processed

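Poly(A) RNA of 12 plates was sequenced. The authors aligned reads with HISAT2 (version 2.0.5) and counted them with featureCounts (1.5.0-p3) on mm39, per the submitters' processing notes, while the paper's methods name mm9; strand use is not given in the sources used here. The authors deposited 1 table per pair of treatments, whose signal values are counts per gene over the library's size factor, set separately in each table. Columns of the authors' own DESeq2 comparison (fold changes, p-values) were not used. Each table lists genes with at least 2 reads over its 8 libraries. Reads were recovered as whole multiples of the step of each column (100% whole within 0.001 reads in 22 of 24 columns), and for the other 2 from the library's second table. RPM and TPM come from these reads.

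limma (3.58.1, R 4.3.3, trend) was fitted to log2(value + 1) over every gene of a table, by treatment, with Benjamini-Hochberg adjustment. Passing meant an adjusted p no higher than 0.05, and being called meant also a log2 fold change of 1 or more in size. Sample numbers were compared on reads of all 12 libraries scaled by TMM, with treatment as covariate. Libraries sharing a sample number deviated together (r = 0.132 to 0.284 in 24 pairs across treatments, with treatment means removed), so the numbers pair the samples. The main fits by treatment did not use this pairing, nor did those leaving out a library. Their intervals and p-values therefore include the difference between sample numbers, which only the replicate block removes. Alternatives were a pseudocount of 0.5, a mean of at least 10, TMM scaling, a replicate block, DESeq2 (1.42.0) and edgeR (4.0.16) on recovered reads, and leaving out each library. The interaction with sample number was added after seeing the data. The limma fits by treatment were checked on simulated counts of independent libraries, with changes only in genes of a higher mean than *Cd68* and *Mrc1*. The check does not cover changes in genes as low as these or libraries that share a sample number.

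The members and marker lists were chosen with earlier results of these data known. Named are all members, list genes past both thresholds with aldosterone against vehicle, up to 4 of the highest level per list, and the 5 genes most like *F13a1*. Further list genes (*Gpnmb*, *Cd14*, *Cebpb*, *Runx1*, *Csf2ra*, *Irf8*, *Serping1*, *F5*, *Tgm2*, *F13b*, *Spi1*, *Tyrobp*, *Aif1*, *Cd163*) were chosen for naming after their values were seen, where the rule did not name them. RefSeq windows carry GRCm38.p6 coordinates, a different build. No window was available for *C1qa* and *Adgre1*, and *Csf1r* was left out of the windows counted. Some genes of the lists are not reported here.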

Additional observations from a re-analysis of the deposited data

Results flagged for a closer look

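*C1qc* had 1 read in the vehicle library 2_2 (0.0461 RPM) and 1 in the spironolactone library 2_2 (0.0426 RPM), with 0 in the other 3 libraries of each group. Each stood apart from its group by Dixon's criterion at the 95% level for 4 libraries, which any single read among zeros meets. Of 27 groups tested, chance flags about 1 in 20.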

How the results depend on the processing

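Under a pseudocount of 0.5, a mean filter, TMM scaling, the sample number as a replicate block, DESeq2 and edgeR, *F13a1* kept its fall against vehicle, from -2.73 to -2.12 over all 14 alternatives with adjusted p between 1.71e-11 and 0.0400, and the block changed no call of a member. Members called were 1 in aldosterone versus spironolactone, and 0 to 1 when each library was left out (0 without spironolactone 1_1 or 1_2). For sample number 2 versus 1, 1 was called, 0 by edgeR, where *F13a1* was -0.98, and 0 to 1 when each library was left out, 0 without aldosterone 1_2. The summed level with aldosterone against vehicle was -0.61, and -0.10 without *F13a1*, -0.96 without *Lyz2* and -0.31 in TPM, and against spironolactone -0.49, and -0.00340, -0.85 and -0.14. Signs turned only where a member had not passed in that comparison, when 1 library was left out. With aldosterone against vehicle, *Mrc1* ran from -0.0895 to 0.25 and *Lyz2* from -0.23 to 0.0117, and against spironolactone *Mrc1* from -0.13 to 0.0542 and *Lyz2* from -0.0685 to 0.13. With spironolactone against vehicle, *Csf1r* ran from -0.15 to 0.0520, *F13a1* from -0.33 to 0.0351 and *Mrc1* from -0.0287 to 0.31, and the cause was not tested. The fitted values of *Ptprc*, from -0.33 to 0.14, and of *C1qc*, from -0.26 to 0.25, turn with single reads at the floor and are not read as folds. *Csf1r* passed between sample numbers without spironolactone 1_1 (-0.47, adjusted p = 0.0360). Depth limits *Ptprc*, *Adgre1* and C1q, where 3 reads are the floor.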
